A study of Rattus norvegicus with 36 samples.

Results

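The lung transcriptome of rats was described here at 30 days (D30) after a single instillation of DQ-12, a reference powder of crystalline silica (quartz). The members were the 12 arrays labelled as D30, of 36 arrays in all, taken by label and not by any measured value. All were from female Sprague Dawley rats, 13 weeks old at instillation. Of these, 6 had received DQ-12 at 10 mg per rat into the trachea and 6 had received the saline vehicle alone, with 1 array of accessory lobe RNA per rat. The other 24 arrays held the same groups at D1 and D180 and were used for the comparison between time points and for the estimate of spread. Every rat at D30 was a separate animal and a single dose was used, so the data hold no dose response.

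Quartz particles that settle in the alveoli are taken up by macrophages through scavenger receptors, and damage to the phagolysosome by the particle surface is known to set off inflammasome activity and the release of IL-1. Activated macrophages and epithelial cells then secrete CC and CXC chemokines, which recruit monocytes and neutrophils. Persistent dust is known for lasting inflammation, alveolar lipoproteinosis and fibrosis.

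Expression is given throughout as the log2 of the background-corrected and quantile-normalized signal of 1 probe per gene, and changes as log2 fold change (FC), DQ-12 minus vehicle, with its standard error (SE). A gene was called a differentially expressed gene (DEG) where the adjusted p was under 0.05 and the FC 2 or more (two-sided limma test, Benjamini-Hochberg over 23940 genes). A median without another name is that of 6 rats, and levels of different probes cannot be compared.

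Markers of alveolar type 2, alveolar type 1, club, ciliated and endothelial cells were well above background on all 12 arrays. Saturated spots numbered 0 and the share of probes well above background was 57.0% to 68.8% in vehicle rats and 59.0% to 69.4% in DQ-12 rats. The highest shares were all on 1 slide, in vehicle rat 4 (68.8%), DQ-12 rat 1 (69.4%) and DQ-12 rat 6 (68.3%). No array of another slide exceeded 63.7%. The arrays had been scanned on 2 dates, which held both groups but unequally. The first held 4 vehicle rats and 1 DQ-12 rat, and the second held 2 vehicle rats and 5 DQ-12 rats. Of 4 slides, 1 held vehicle rats only. The differences within each date are therefore given beside the main results, and values with the scan date or slide as a block where they end a call.

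At D30, 252 genes were DEGs, 1.05% of those tested. Expression was higher in DQ-12 lungs for 219 (0.915%) and lower for 33 (0.138%). By the adjusted p alone, 656 genes were higher (2.74%) and 298 lower (1.24%). In 434 genes (1.81%) the lowest DQ-12 rat exceeded the highest vehicle rat, and in 131 (0.547%) the highest DQ-12 rat was under the lowest vehicle rat, and 173 of the 252 DEGs were among these genes. The median change over all genes was −0.015. Within the first scan date 248 of 252 DEGs had the same sign, and within the second 252 did. On both dates 145 changed by at least 2-fold in that direction. The DEGs were called on these same arrays and the first date held 1 DQ-12 rat, so these counts are a description. With the scan date as a block 176 genes were DEGs, including 147 of the 252, and with the slide 173, including 136.

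**Figure D1:**
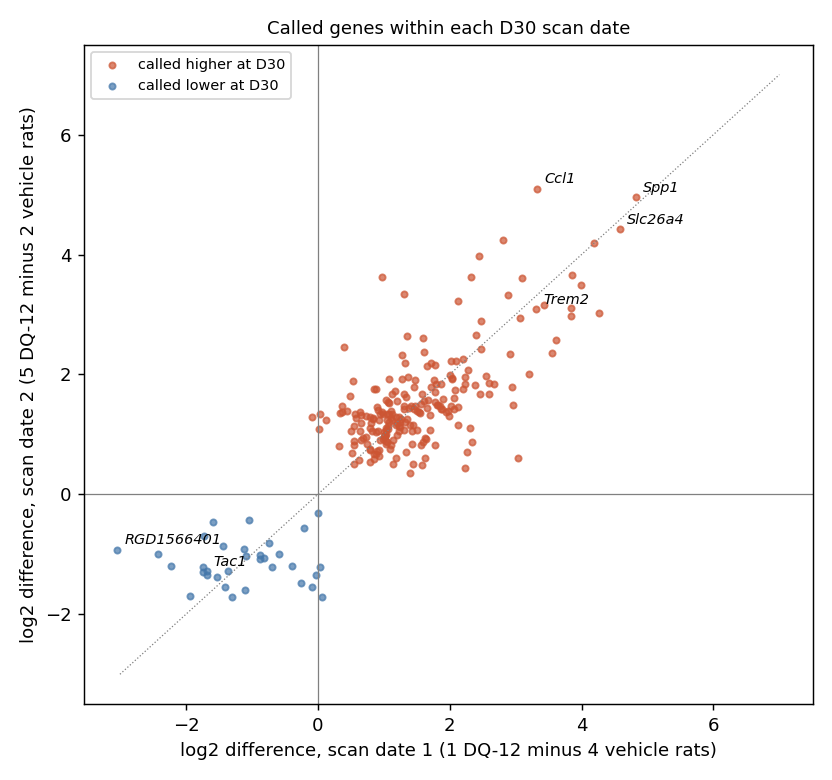
Change at D30 within the first scan date (x axis) and within the second (y axis), as the log2 difference between the mean of DQ-12 rats and the mean of vehicle rats, with 1 point per DEG of the 252. For 248 genes, which were called on these same arrays with 1 DQ-12 rat on the first date, the point lies in a quadrant of equal sign, and the dotted line marks equal differences.

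Spp1, which encodes the secreted matrix protein osteopontin, changed most among DEGs detected in both groups. Its log2 signal ran from 4.26 through a median of 5.07 to 7.72 in vehicle rats and from 9.42 through 10.63 to 11.54 in DQ-12 rats. Every DQ-12 rat was far above every vehicle rat. The leading rises and falls were chosen for lack of overlap, so in them it is a condition and not a result. The change was 4.83 within the first scan date and 4.96 within the second, against 5.14 in all rats (SE 0.55, adjusted p = 1.46e-07, limma). Within the 3 slides that held both groups it was 4.76, 5.15 and 3.96. Under normexp background correction it was 3.70, still a DEG. In whole lung, fewer cells of a type and less RNA per cell cannot be told apart, nor can more cells and more RNA per cell.

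Slc26a4, the epithelial anion exchanger pendrin, had vehicle values of 4.46, 4.87 and 5.43 (lowest, median, highest) and DQ-12 values of 8.91, 9.41 and 10.11, with a change of 4.52. Under normexp background correction its change was 3.08, still a DEG. The lack of overlap between groups was again a condition, here and for Trem2. Trem2, a lipid-sensing receptor of macrophages, ranged from 8.78 to 9.49 with a median of 9.06 in vehicle rats and from 11.39 to 12.96 with a median of 12.38 in DQ-12 rats. The change of 3.17 (SE 0.21, adjusted p = 4.96e-12, limma) was 3.31 and 3.09 within the scan dates.

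The macrophage elastase Mmp12 rose by 3.61 (vehicle 5.61 to 6.67, DQ-12 9.27 to 10.11), and by 2.56 under normexp background correction. Mmp7 (matrilysin), an epithelial metalloproteinase that was well above background on 1 vehicle array and all 6 DQ-12 arrays, rose by 3.50. Saal1, whose array annotation is serum amyloid A-like 1, rose by 3.88, with 2.44 within the first scan date and 3.97 within the second. Cd177, a surface glycoprotein of neutrophils, had medians of 9.44 and 12.41 and rose by 3.19. Gpr84, a receptor for medium-chain fatty acids on activated macrophages, rose by 2.44, but under normexp background correction its change was 0.82.

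Among the 20 largest rises without overlap and detected in both groups were also the predicted transcripts LOC102550137, LOC102549724, LOC102551003 and LOC103691626 (3.36 to 3.64). The germ cell-associated gene Gsg1 (3.32) was another. Normexp background correction lowered the change to 1.24 for Mmp7, 1.52 for LOC102550137, 1.36 for LOC102549724, 1.16 for LOC103691626 and 1.24 for Gsg1, each still a DEG. LOC102551003 had 0.44 (adjusted p = 0.828, limma) on its second probe and 1.95 as the median over both. RGD1565655 rose by 3.29 on its brightest probe, while its other probes changed by −0.26 and −0.08, so this rise belongs to 1 probe. The rest of the 20 belong to groups described in the following paragraphs.

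**Figure D2:**
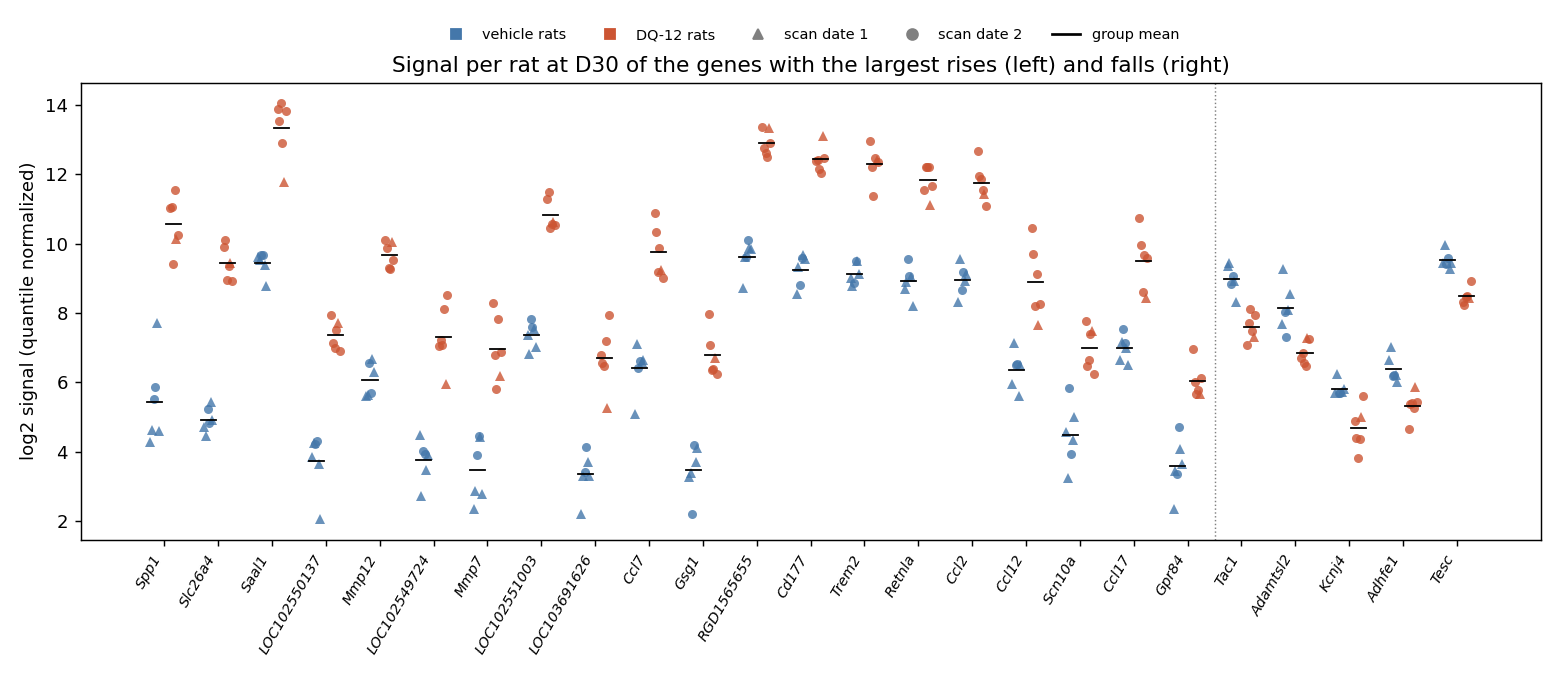
Log2 signal of the leading genes in each D30 rat, with blue points for vehicle rats, red points for DQ-12 rats, triangles for the first scan date, circles for the second and a black line at each group mean. Spp1 lies between 4.26 and 7.72 in vehicle rats and between 9.42 and 11.54 in DQ-12 rats. The groups do not overlap for any gene shown, because that was a condition for being shown.

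Where no vehicle array was well above background, only a lower bound can be given. Ccl1, a chemokine of T helper 2 and regulatory T cells, was at least 8.63-fold higher in DQ-12 rats (adjusted p = 2.37e-08, limma). Mab21l3, of the airway secretory list, was at least 7.62-fold higher (adjusted p = 2.41e-08). Orm1, the acute-phase plasma protein orosomucoid, was at least 6.85-fold higher (adjusted p = 9.86e-05). All were well above background in all 6 DQ-12 rats and in none of the vehicle rats. In total 34 DEGs were at background in every vehicle rat but not in every DQ-12 rat, 10 the other way round, and 3 in all rats of both groups.

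Falls were fewer. Detected in both groups and without overlap were Tac1, the precursor of the sensory neuropeptide substance P (−1.38), Adamtsl2, a microfibril-associated glycoprotein (−1.30), the inward rectifier potassium channel Kcnj4 (−1.13), the alcohol dehydrogenase Adhfe1 (−1.05) and the calcium-binding protein Tesc (−1.04). Tac1 values were 8.32, 8.99 and 9.44 in vehicle rats and 7.07, 7.60 and 8.11 in DQ-12 rats, so the nearest rats of the groups lay close together. With the scan date as a block Adamtsl2 (−0.98, adjusted p = 0.141), Kcnj4 (adjusted p = 0.170) and Adhfe1 (−0.85, adjusted p = 0.107) were no longer DEGs. Adamtsl2 was not a DEG when vehicle rat 2, 5 or 6 or DQ-12 rat 1, 2, 3 or 4 was left out (−1.32 to −1.08, adjusted p = 0.0520 to 0.106, limma), nor Kcnj4 without vehicle rat 2 or DQ-12 rat 2, 3 or 4 (−1.07 to −0.96). The same held for Adhfe1 without vehicle rat 1 (just under 2-fold), vehicle rat 2 (−0.92) or DQ-12 rat 1 (−0.91), and for Tesc without vehicle rat 2 (−0.95) or DQ-12 rat 2 (−0.99). Rats are numbered as the labels number the replicates, which does not pair them across groups.

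CC chemokines and acute-phase proteins held 8 DEGs each, the most of any list except the genes picked by the study. Over all genes tested 1.05% were DEGs, which is the share to set beside the counts of every list. The lists differ in size and were chosen with earlier results of these data known, so their counts and ranking are a description. Of 21 CC chemokines tested, 8 rose at D30 and 0 fell, with a median change of 0.39. Of 14 CXC chemokines, 5 rose and 0 fell, with a median of 0.50. Promoters of many members of both families are known to carry NF-kappaB and AP-1 sites, so the stretches before the gene start that hold such letters in DEGs are shown, read from 5′ to 3′ on the strand of the gene in RefSeq sequence (GRCr8). Capitals mark the words searched, and a match is a description and not a site in use.
Cxcl1, chr14:17479383-17479435, minus strand: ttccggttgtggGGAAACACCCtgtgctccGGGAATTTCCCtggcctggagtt
Cxcl2, chr14:17467288-17467341, minus strand: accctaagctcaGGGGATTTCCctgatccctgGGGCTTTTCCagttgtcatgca
Cxcl6, chr14:17596483-17596517, minus strand: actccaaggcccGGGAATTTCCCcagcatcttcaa
Cxcl10, chr14:15988867-15988988, plus strand: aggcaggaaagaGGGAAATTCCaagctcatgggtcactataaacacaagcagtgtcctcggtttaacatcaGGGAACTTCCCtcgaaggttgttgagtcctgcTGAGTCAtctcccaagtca
Ccl7, chr10:67514010-67514057, plus strand: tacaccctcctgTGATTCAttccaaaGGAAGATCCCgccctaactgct
Ccl9, chr10:68868962-68868995, minus strand: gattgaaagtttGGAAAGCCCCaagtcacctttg

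The words were GGGNNNTTCC, a kappaB-like word, and TGANTCA, an AP-1 word, searched on both strands from 250 bases before to 50 bases after each gene start, with overlapping matches allowed. Of 33469 promoters, 5.37% held the first and 7.33% the second. The kappaB-like word stood in all 4 CXC DEGs with a promoter sequence (Cxcl1, Cxcl2, Cxcl6 and Cxcl10) and in 1 of 8 CXC chemokines that were not DEGs (Cxcl11). It stood in 2 of 6 CC DEGs with a sequence (Ccl7 and Ccl9) and in 2 of 10 CC chemokines that were not (Ccl6 and Ccl20). The AP-1 word stood in 1 of 4 CXC DEGs (Cxcl10) and in 2 of 8 CXC chemokines that were not DEGs (Cxcl11 and Cxcl14), and in 1 of 6 CC DEGs (Ccl7) and 0 of 10 other CC chemokines. These genes share neighbourhoods and ancestry, so they are not independent instances.

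Among monocyte attractants, Ccl2 ranged over 8.31, 9.02 and 9.57 in vehicle rats and 11.10, 11.70 and 12.67 in DQ-12 rats, a rise of 2.80 (SE 0.24, adjusted p = 2.18e-09, limma). The neighbouring Ccl7 rose by 3.34 and Ccl12 by 2.53. Under normexp background correction these changes were 2.52 and 1.89, both still DEGs. In Ccl7 the lowest vehicle rat (5.09) stood apart from the others (median 6.61), while the DQ-12 median was 9.56. Within the scan dates Ccl2 changed by 2.47 and 2.89.

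Ccl17 and Ccl22, the ligands of Ccr4 on T helper 2 cells, rose by 2.50 and 1.59. The other probes of Ccl22 had 2.20 and 2.27. Ccl3 and Ccl9, attractants of monocytes and other leukocytes, rose by 1.31 and 1.47. Ccl6 and Cx3cl1 passed the adjusted p below 2-fold (0.54 and 0.67). The lymphoid chemokines Ccl19 and Ccl21 had changes of 0.39 (adjusted p = 0.550) and 0.31 (adjusted p = 0.430).

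The neutrophil attractants Cxcl1 (1.17), Cxcl2 (1.76), Cxcl3 (1.28) and Cxcl6 (2.84) and the interferon-inducible Cxcl10 (1.78) were the CXC DEGs. With the scan date as a block 2 CXC chemokines were DEGs and with the slide 0 were, against 8 and 8 CC chemokines. Blocked by scan date Cxcl1 had an adjusted p of 0.0611, Cxcl3 a change of 1.03 (adjusted p = 0.0688) and Cxcl10 one of 1.45 (adjusted p = 0.249). With the slide Cxcl2 had 1.81 (adjusted p = 0.0827) and Cxcl6 2.76 (adjusted p = 0.0768). A second probe of Cxcl6 had 4.72 (adjusted p = 5.96e-06, limma) in the fit without a block. Cxcl10 was no longer a DEG when vehicle rat 1, 2, 4, 5 or 6 or DQ-12 rat 1, 2 or 4 was left out (1.49 to 1.78, adjusted p = 0.0506 to 0.145, limma). None of 21 chemokine receptors was a DEG at D30, and 0 passed the adjusted p.

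**Figure D3:**
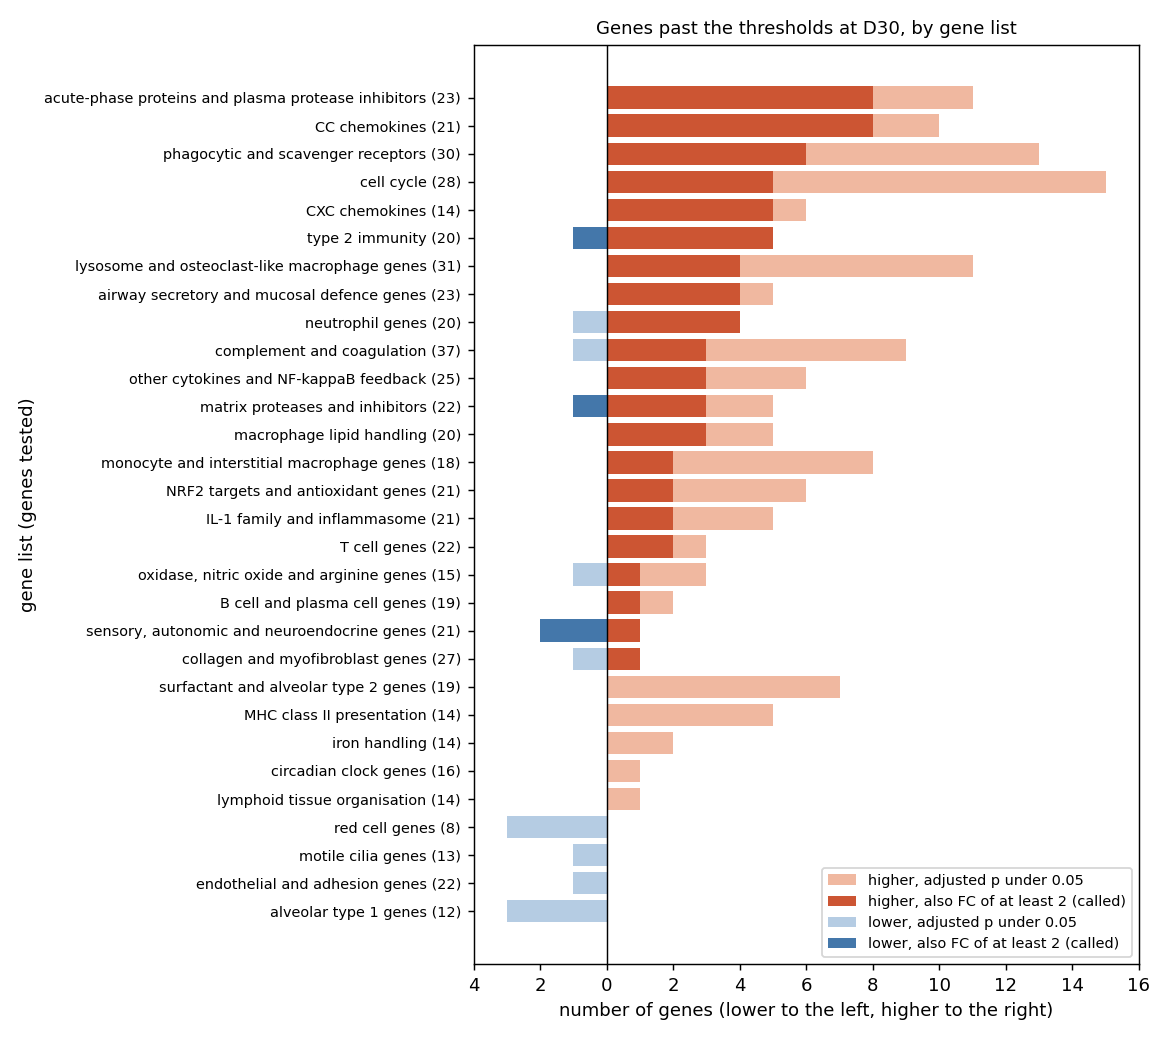
Number of genes at D30 that passed the adjusted p (pale bars) and of DEGs among them (dark bars) in each gene list with a gene past the adjusted p, higher to the right and lower to the left of 0, with the number tested in parentheses. CC chemokines and acute-phase proteins hold 8 DEGs each, and the cell cycle list the longest pale bar with 15 genes. Over all genes tested 1.05% were DEGs.

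In the IL-1 family and inflammasome list 2 of 21 rose and 0 fell. Both are antagonists of IL-1: Il1r2, the decoy receptor, rose by 2.15 and Il1rn, the receptor antagonist, by 1.13. Il1b itself passed the adjusted p at 0.83 (adjusted p = 0.0148, limma), with 4 DQ-12 rats above all vehicle rats, and Nlrp3, the inflammasome sensor, at 0.54. Il1a had 0.21 (adjusted p = 0.685) and Il18 0.16 (adjusted p = 0.649).

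Of 25 other cytokines and feedback genes of NF-kappaB, 3 rose. These were Tnf (1.34), the IL-6 family cytokine oncostatin M, Osm (1.12), and Il12b, the shared subunit of IL-12 and IL-23, which was at background in all vehicle rats and at least 1.71-fold higher. The second probe of Osm had 0.15 (adjusted p = 0.856, limma), and as the median over both probes Osm was not a DEG (0.63). Tnf ran from 9.21 to 10.27 in vehicle rats and from 10.53 to 11.57 in DQ-12 rats, without overlap. The macrophage growth factor Csf1 passed the adjusted p at 0.94. Il6 had 0.20 (adjusted p = 0.824).

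Of 30 phagocytic and scavenger receptors tested, 6 rose and 13 passed the adjusted p, all higher, with a list median of 0.41 against −0.015 over all genes. Besides Trem2, these were the class A scavenger receptors Marco (at background in all vehicle rats, at least 1.96-fold higher) and Msr1 (1.37), both receptors for inhaled particles, the inhibitory Fc receptor Fcgr2b (1.39), the endosomal glycoprotein Cd68 (1.16) and Trem1 (1.15), which amplifies inflammation. Tyrobp, the signalling adaptor of both Trem receptors, passed the adjusted p at 0.49. Msr1 ran from 6.79 through 7.22 to 7.54 in vehicle rats and from 8.38 through 8.45 to 8.90 in DQ-12 rats, apart in every rat. With either block 7 members of the list were DEGs. Marco was not a DEG under normexp background correction, where its change was 0.69.

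In the list of lysosomal and osteoclast-like genes 4 of 31 rose and 11 passed the adjusted p, all higher. With Spp1 these were Atp6v0d2, a subunit of the vacuolar proton pump (1.55), Gpnmb, a glycoprotein of lysosomes in lipid-laden macrophages (1.50), and the collagen-degrading cathepsin Ctsk (1.04). Cathepsins B, D and S (Ctsb, Ctsd, Ctss) had 0.44, 0.60 and 0.58, each past the adjusted p. Ctsk stood at the threshold and was not a DEG without vehicle rat 2 (0.98), vehicle rat 4 (0.96) or DQ-12 rat 4 (0.93), nor with the slide as a block (1.09, adjusted p = 0.0882).

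Of 20 genes of macrophage lipid handling, Cd5l (at background in vehicle rats, at least 1.6-fold higher), Fabp5 (1.23) and Fabp4 (1.12) rose. The fatty acid-binding genes overlapped between groups: 3 DQ-12 rats for Fabp4 and 2 for Fabp5 exceeded the highest vehicle rat. Blocked by scan date they had 0.75 (adjusted p = 0.136) and 0.88 (adjusted p = 0.0369), and Fabp4 had 0.99 without DQ-12 rat 4. In the list of monocyte and interstitial macrophage genes 2 of 18 were DEGs, among them Cd68, and 8 passed the adjusted p.

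Some cell type markers moved alongside these genes. The log2 of the summed signal of 5 alveolar macrophage markers was 12.33 to 12.60 in vehicle rats and 13.11 to 13.63 in DQ-12 rats, with 3 of 5 called. The 3 were Marco, Cd68 and Fabp4, whose limits are given with them, while Pparg had −0.017 and Siglec5 −0.047. For 5 neutrophil markers the summed signal was 12.87 to 14.05 against 14.41 to 15.91. The 2 called were S100a9 and S100a8, which make up much of that sum and whose limits are given below. Csf3r, Cxcr2 and Mmp8 were not called, and the median change of the 5 was 0.83. For 3 plasma cell markers the summed signal was 11.77 to 12.75 against 13.44 to 14.15. Only Jchain was called, and its signal makes up most of that sum, while Mzb1 and Tnfrsf17 were not called. None of the monocyte, T cell, B cell, NK cell or mast cell markers was a DEG. The part of cell numbers in the changes of single genes was not tested.

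Alveolar type 2 cells make surfactant. Of 19 of their genes tested 0 were DEGs and 7 passed the adjusted p, all higher, among them surfactant proteins A and D (Sftpa1 0.49, Sftpd 0.66), the lamellar body protein Lamp3 (0.75) and fatty acid synthase, Fasn (0.64). All 6 DQ-12 rats were above all vehicle rats for Sftpa1 and Sftpd. Surfactant protein C, Sftpc, was the brightest gene on every array, so quantile normalization set it to 18.42 in all rats and no change can be read from that probe. Its second probe had 0.34 (adjusted p = 0.520, limma), and the deposited table, which is not quantile-normalized, −0.10. Of 12 alveolar type 1 genes, 3 passed the adjusted p and were lower: Cav1 (−0.40), the main protein of caveolae, Clic5 (−0.33), a chloride channel protein, and Igfbp6 (−0.82), a binding protein of insulin-like growth factors.

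In airway secretory and mucosal defence genes 4 of 23 rose, with a list median of 0.00. Besides Slc26a4 and Mab21l3 these were the secreted protein Bpifb1 (1.62) and the epithelial dual oxidase Duox1 (1.07). Duox1 had 0.93 without DQ-12 rat 1 and 0.99 without DQ-12 rat 5. The club cell protein Scgb1a1 had −0.33 (adjusted p = 0.171) and the mucin Muc5b −0.26 (adjusted p = 0.838). None of 13 motile cilia genes was a DEG, and 1, Tekt1, passed the adjusted p (−0.41). Endothelial and adhesion genes had 0 DEGs of 22 and 1 past the adjusted p, the tight junction gene Cldn5 (−0.78).

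Plasma proteins of the acute phase held 8 DEGs among 23 tested, 0 of them lower, with a median of 0.70. Itih1, a heavy chain of the inter-alpha-trypsin inhibitor, was at background in all vehicle rats and at least 4.3-fold higher. Itih3 of the same family (1.30), the haem scavenger Hpx (1.43), the kininogens Kng2 (1.35) and Kng1 (1.00), the fetuin Fetub (1.05) and haptoglobin, Hp (1.05), also rose. Kng1, Fetub and Hp stood at the threshold: Kng1 had 0.94 to 0.99 without vehicle rat 2, 5 or 6 or DQ-12 rat 1, 3 or 4, Fetub 0.99 without DQ-12 rat 5, and Hp 0.99 without vehicle rat 6 and 0.96 without DQ-12 rat 6. Only the brightest probe of Kng1 stood there, and its other probes had 1.92 (adjusted p = 1.88e-05, limma) and 1.80 (adjusted p = 0.00145). Kng1 blocked by scan date had 0.85 and Hp 0.99. Haptoglobin ran from 11.60 to 12.24 in vehicle rats and from 12.72 to 13.42 in DQ-12 rats.

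Of 37 complement and coagulation genes 3 rose. C3, the central component of complement, had 12.95, 13.19 and 13.37 in vehicle rats and 14.76, 15.14 and 15.72 in DQ-12 rats, a rise of 2.04 (SE 0.16, adjusted p = 1.33e-10, limma) that was 2.01 and 1.98 within the scan dates. The groups lay well apart. The protease Cfi, which degrades C3b, rose by 1.88 and C6, of the membrane attack complex, by 1.42. With the slide as a block C6 had 1.17 (adjusted p = 0.0734). The C1q chains C1qa (0.90) and C1qb (0.72) passed the adjusted p below 2-fold, and the anticoagulant receptor gene Thbd was lower (−0.38).

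Among NRF2 targets and antioxidant genes 2 of 21 rose, the cystine transporter Slc7a11 (2.05) and the metallothionein Mt2A (1.29). A second probe of Slc7a11 gave 1.06. Haem oxygenase, Hmox1, had 1.00 (adjusted p = 8.34e-04), just under the 2-fold limit, with all 6 DQ-12 rats above all vehicle rats, and mitochondrial superoxide dismutase, Sod2, had 0.93. The quinone reductase Nqo1 had −0.13 (adjusted p = 0.746). Of 15 oxidase, nitric oxide and arginine genes Arg1, which cleaves arginine, rose by 1.70, while Ass1, which makes its precursor, passed the adjusted p at −0.89. Nos2 had −0.16 (adjusted p = 0.908). None of 14 iron-handling genes was a DEG, and the transferrin receptor Tfrc (0.59) and transferrin, Tf (0.75), passed the adjusted p.

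Of 22 matrix proteases and inhibitors 3 rose (Mmp12, Mmp7 and Ctsk) and 1 fell (Adamtsl2), and Mmp14 (0.63) and Mmp19 (0.90) passed the adjusted p. Of 27 collagen and myofibroblast genes 1 rose, Cthrc1, a secreted protein of activated fibroblasts (1.05), and the smooth muscle gene Tagln was lower past the adjusted p (−0.60). Col1a1 had 0.39 (adjusted p = 0.312), Col3a1 0.46 (adjusted p = 0.258) and Acta2 −0.017 (adjusted p = 0.991). In the fit blocked by scan date Cthrc1 had 0.94 (adjusted p = 0.00619).

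Of 20 genes of type 2 immunity 5 rose and 1 fell. Retnla, a resistin-like secreted protein of alternatively activated macrophages and epithelium, ran from 8.20 through 8.97 to 9.57 in vehicle rats and from 11.11 through 11.93 to 12.22 in DQ-12 rats, a rise of 2.92 (SE 0.49, adjusted p = 2.65e-04, limma). The lack of overlap was a condition for Retnla as a leading rise, and its change was 2.40 and 2.66 within the scan dates. The chitinase Chia (2.09) and the chitinase-like Chi3l1 (1.89) rose with Ccl17 and Ccl22. The lipoxygenase Alox15 fell by 1.22 on the log2 scale (adjusted p = 0.00403), with 4 DQ-12 rats below all vehicle rats. The cytokines Il4, Il5, Il9 and Il13 did not pass the adjusted p.

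Lymphocyte genes changed in few members. Of 19 B cell and plasma cell genes, Jchain, the joining chain of secreted immunoglobulin, rose by 1.36 (vehicle 11.71 to 12.70, DQ-12 13.41 to 14.12), and Irf4 passed the adjusted p (0.75). The B cell gene Ms4a1 had −0.31 (adjusted p = 0.480). Of 22 T cell genes the transcription factor Batf (1.20) and the costimulator Icos (1.05) rose, and the IL-2 receptor chain Il2ra passed the adjusted p (0.91), whereas Cd3e had 0.0053 (adjusted p = 0.999). Icos had 0.98 without vehicle rat 3, 0.94 without DQ-12 rat 1 and 0.93 with the scan date as a block. None of the NK cell genes was a DEG, and of 14 genes of lymphoid tissue organisation only Ltb passed the adjusted p (0.76).

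In neutrophil genes 4 of 20 rose, the alarmin S100a9 (1.93) with its partner S100a8 (median 11.91 in vehicle and 12.89 in DQ-12 rats), Il1r2, and the defensin Np4 (1.45). S100a9 ran from 12.04 to 13.41 in vehicle rats and from 13.84 to 15.53 in DQ-12 rats, without overlap. The formyl peptide receptor Fpr1 was lower past the adjusted p (−0.95). S100a8 had 0.95 without DQ-12 rat 1 and 1.00 (adjusted p = 0.0585) with the scan date as a block. Np4 overlapped between groups and was not a DEG when vehicle rat 1, 2, 3 or 5 or DQ-12 rat 1, 2, 4 or 6 was left out (1.24 to 1.48, adjusted p = 0.0689 to 0.136, limma). With the scan date as a block it had 1.20 (adjusted p = 0.173) and with the slide 1.39 (adjusted p = 0.122). Mast cell and eosinophil genes held 0 DEGs.

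Of 22 interferon-stimulated genes, 0 were DEGs and 0 passed the adjusted p, with a list median of 0.24. Of 14 genes of MHC class II presentation, 0 were DEGs and 5 passed the adjusted p, all higher, including RT1-Da (0.64) and the invariant chain Cd74 (0.41).

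Of 28 cell cycle genes tested 5 rose and 15 passed the adjusted p, all higher, with a median of 0.61. Rrm2, a subunit of ribonucleotide reductase, rose by 1.34, cyclin A2, Ccna2, by 1.12, the replication helicase subunit Mcm5 by 1.11, and the mitotic genes Bub1b and Tpx2 by 1.11 and 1.02. The proliferation marker Mki67 passed the adjusted p at 0.57. Of the 28, only 3 passed the adjusted p with the scan date as a block and 4 with the slide, and with either block only 1 was a DEG, Rrm2. Blocked by scan date Ccna2 had 0.95, Mcm5 0.91, Bub1b 0.73 (adjusted p = 0.304) and Tpx2 0.74 (adjusted p = 0.220). Bub1b was not a DEG when any rat but vehicle rats 3 and 4 and DQ-12 rat 5 was left out (0.94 to 1.17), nor Tpx2 without vehicle rat 1, 2 or 5 or DQ-12 rat 1 (0.91 to 0.98).

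Of 21 sensory, autonomic and neuroendocrine genes Tac1 and Kcnj4 fell and Scn10a, a sodium channel of sensory neurons, rose by 2.51. Scn10a was well above background in 3 vehicle rats and all 6 DQ-12 rats, and its change under normexp background correction was 1.03. Genes of other tissues that a lung sample can hold were not called. Cardiac muscle genes had 0 DEGs of 11 and a median of −0.44, and skeletal muscle genes 0 of 11, with 1 DQ-12 rat (rat 6) at a list mean of 1.59 above the vehicle mean. Red cell genes had 0 DEGs of 8 and a median of −0.76, with Hbb (−0.75) and Alas2 (−0.76) among those lower past the adjusted p. Of 16 clock genes Bhlhe41 passed it (0.90), and none of the immediate early and heat shock genes was a DEG.

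The study picked 15 genes as markers on these samples among others, so their counts are not independent evidence. At D30, 14 of the 15 were DEGs, all higher, and Capg, an actin-capping protein of macrophages, had 0.95. Capg became a DEG with the scan date (1.05) or the slide (1.04) as a block. The lectin gene LOC689757, annotated as similar to osteoclast inhibitory lectin, rose by 1.95, with 4.02, 4.70 and 5.64 in vehicle rats and 6.26, 6.66 and 7.51 in DQ-12 rats. The groups did not overlap.

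The size of the response varied among rats. Averaged over the 219 genes called higher, the change from the vehicle mean was 2.09, 1.80, 1.47, 1.71, 1.45 and 1.69 in DQ-12 rats 1 to 6 and −0.16 to 0.25 in vehicle rats. Between 193 (rat 5) and 215 (rat 1) of these genes lay above all vehicle rats in a single DQ-12 rat. These genes were chosen on the same rats, so this is a description. Rat 5 was the only DQ-12 rat of the first scan date. Without it 360 genes were DEGs, and without rat 1, 198 were.

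**Figure D4:**
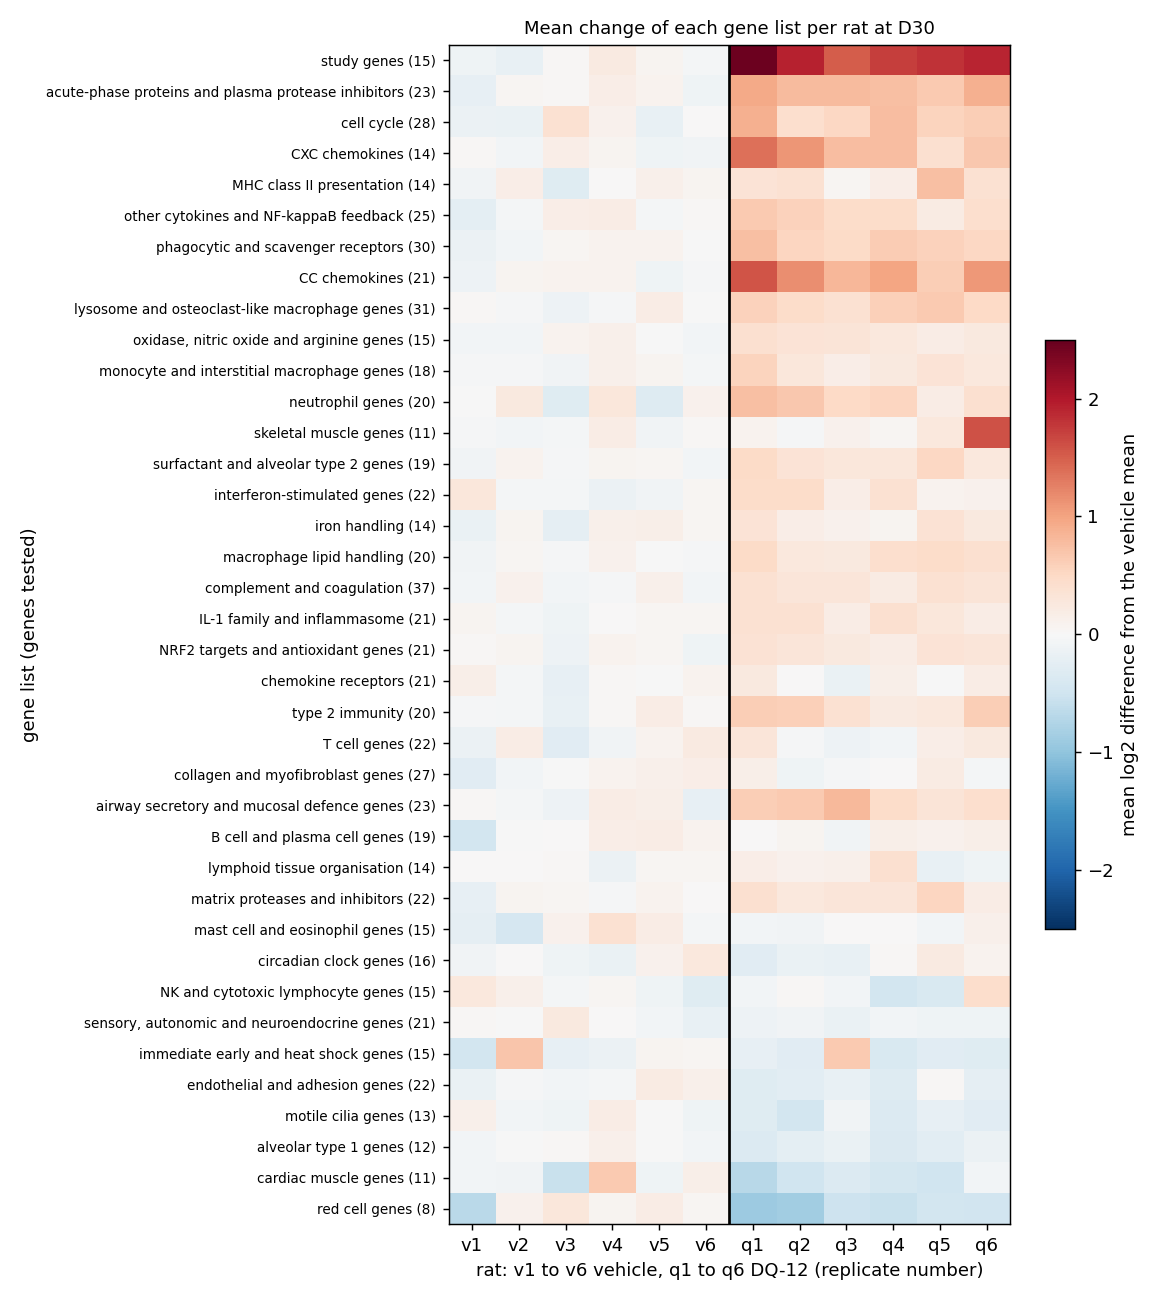
Mean change of each gene list in each D30 rat from the mean of the vehicle rats (log2, red higher and blue lower), with vehicle rats v1 to v6 on the left and DQ-12 rats q1 to q6 on the right. CC chemokines and acute-phase genes are above the vehicle mean in all 6 DQ-12 rats, and skeletal muscle genes stand out in DQ-12 rat 6 alone (1.59).

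The change at D30 was then set beside those at D1 and D180 by the difference of changes (limma interaction terms). Both differences use the same D30 arrays, so they are given side by side and not counted together. The change at D30 differed from that at D1 for 226 genes (0.944%), 92 more positive and 134 less positive at D30, and from that at D180 for 33 genes (0.138%), 4 more positive and 29 less. Scan dates were less balanced at D1, where 1 of 6 vehicle arrays shared a date with DQ-12 arrays. The direction of the D1 split depended on the scaling. With 75th percentile scaling 136 of 225 genes were more positive at D30 and 89 less, and with the values deposited by the authors 137 and 88. The median difference over all genes was 0.0065 in the quantile-normalized values and 0.083 in either of these. As few as 30 genes differed from D1 with the scan date as a block (23 more positive, 7 less), and 30 with the slide (26 and 4). Against D180, 14 genes differed with the scan date as a block, 0 of them more positive, and 223 with the slide, 155 more positive and 68 less. None of the 10 genes named in the next 2 paragraphs for a difference from D1 kept its call with either block. Of the 9 named against D180, A2ml1 and LOC689770 kept theirs with the scan date and A2ml1 with the slide.

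More positive at D30 than at D1 were Itih1 (difference 4.28, adjusted p = 0.00388), the complement receptor of tissue macrophages Vsig4 (3.86), LOC102549724 (3.69), the kallikrein Klk13 (3.26) and Ccl1 (3.10). Vsig4 had −3.30 at D1 and 0.56 at D30, so the larger change was at D1, where DQ-12 rats were lower. Klk13 was a DEG at D30 (2.17) but not with the scan date as a block (1.59, adjusted p = 0.0602). At D1 Itih1 was well above background in 1 vehicle and 0 DQ-12 rats and Ccl1 in 0 and 3, so these differences include signals near background. Under normexp the difference of LOC102549724 was 1.38 (adjusted p = 0.0593) and not called.

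Less positive at D30 than at D1 were the IL-10 family cytokine Il24 (−3.79, with 4.35 at D1 and 0.57 at D30), the RNA-binding protein gene Celf4 (−3.03), the transcription factor Foxn4 (−2.64), the mitotic kinase Pbk (−2.54) and the centriole gene Stil (−2.54). Stil was well above background on none of the 12 D30 arrays. For Celf4, whose other probes had −0.10 to 0.16 at D30, the difference as the median over probes was −0.93 (adjusted p = 0.137, limma) and not called. In the cell cycle list 16 of 28 genes differed between D30 and D1, all with a smaller change at D30. Over all genes only 7 were less positive at D30 with the scan date as a block and 4 with the slide. Most of these 16 calls therefore did not hold with either block, and the difference of single members of the list with a block is not reported here. Top2a, the DNA topoisomerase of dividing cells, had 2.71 at D1, 0.53 at D30 and 1.51 at D180 (difference from D1 −2.18, adjusted p = 1.90e-07, limma).

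More positive at D30 than at D180 were the bone morphogenetic factor Gdf10 (2.03), the deglycating kinase Fn3k (1.25), Lrrn3 (1.22) and the matrix protein periostin, Postn (1.01). Of these, Gdf10 was a DEG at D30 (1.24), though not with the scan date as a block (1.09, adjusted p = 0.157) or without vehicle rat 5 (1.09, adjusted p = 0.0588). Less positive at D30 were Orm1 (−4.15), the peroxidase of airway secretions Lpo (−2.88), the uncharacterized LOC100911842 (−2.59), the protease inhibitor A2ml1 (−2.47) and the lectin gene LOC689770 (−2.42). Orm1 was well above background in no vehicle rat at D30 and in 2 at D180, LOC100911842 in no vehicle rat at either time and in 3 DQ-12 rats at D30, and A2ml1 in no rat at D30 and in 1 vehicle and 4 DQ-12 rats at D180. These differences include signals at background. Lpo had changes of 0.20 at D1, 1.86 at D30 and 4.74 at D180, with an adjusted p of 0.00460 for the difference between D30 and D180. The difference of Gdf10 was not called without vehicle rat 1, 5 or 6 or DQ-12 rat 2, 3 or 6 (1.88 to 2.03, adjusted p = 0.0541 to 0.0779, limma), that of Postn without vehicle rat 1, 2, 4 or 5 or DQ-12 rat 2, 4 or 5 (0.93 to 1.00) and that of LOC100911842 without vehicle rat 1 or 5 or DQ-12 rat 2, 3 or 6 (−2.60 to −2.54).

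Among the leading genes, Spp1 had changes of 6.99 at D1, 5.14 at D30 and 7.87 at D180, with a difference of −1.86 between D30 and D1 (adjusted p = 0.222, limma). Trem2 had 0.71, 3.17 and 3.58, with a difference of 2.46 from D1 (adjusted p = 1.20e-05) and −0.41 from D180 (adjusted p = 0.643). The adjusted p-values of this paragraph come from the fit without a block, and these differences with a block are not reported here. Over all genes, calls of a difference from D1 went from 226 to 30 with the scan date or the slide as a block. Slc26a4 had 4.03, 4.52 and 5.22, and C3 had 1.08, 2.04 and 1.83 (difference from D180 0.21, adjusted p = 0.773).

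**Figure D5:**
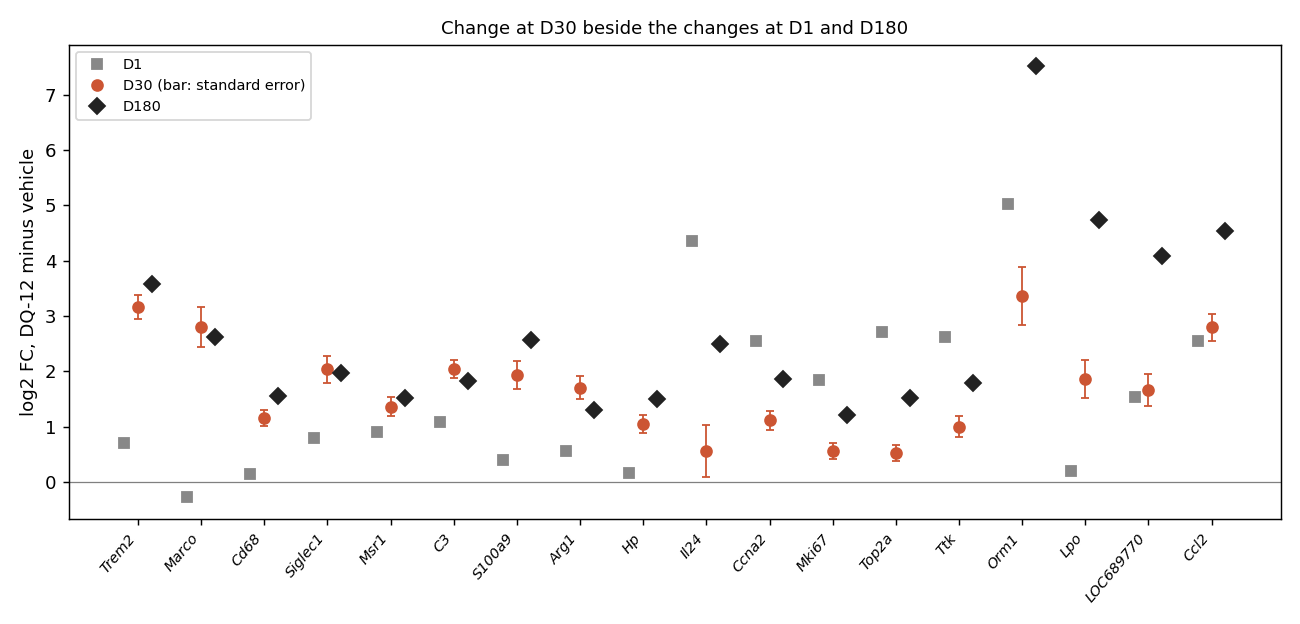
Change (log2 FC, DQ-12 minus vehicle) of selected genes at D1 (squares), D30 (circles, with SE) and D180 (diamonds), from 6 rats per group and time. The genes were chosen after their values were seen, Marco and Orm1 were at background in all vehicle rats at D30, and Top2a lies at 2.71 at D1 and 0.53 at D30.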

How the data were processed

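RNA of 1 accessory lobe per rat was hybridised by the authors to single-color Agilent arrays and scanned. Per the file headers and labels, Feature Extraction 12.0.1.1 gave the deposited background-corrected Cy3 intensity of each spot. The authors' deposited log2 table equals that intensity on the log2 scale after scaling each array to its 75th percentile and subtracting each probe's median (median absolute difference 0.00177, r = 0.99997). Depth does not apply to arrays, and their number limits precision.

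From the intensity, outlier spots were left out (249 to 596 per D30 array) and spots of a probe averaged on the log2 scale. Probes above the 95th percentile of negative controls on at least 6 arrays were quantile normalized, and the brightest probe of each gene was used. Over all arrays 210 values in 206 genes were missing and were left out of the fit. A model of 6 group means was fitted to 36 arrays with limma 3.58.1 (R 4.3.3), tested on simulated data, with two-sided tests and Benjamini-Hochberg adjustment. DEGs needed an adjusted p under 0.05 and an FC of 2 or more. The study housed its rats in shared cages, but which rats shared a cage is not given. The labels do not say whether rats shared litters or extraction days. With the slide as a random block the correlation of arrays on a slide was 0.387, and 243 genes were DEGs.

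Named were the 20 largest rises and 10 largest falls without overlap and detected in both groups (5 falls qualified), the 3 largest bounds, the called members of each list (up to 6) with up to 3 defining or bright members that were not called, up to 5 genes per direction that differed between times, the genes picked by the study and cell type markers. A bound sets the mean of the bright group against the mean, over the dim group, of the higher of the array's lowest signal well above background and the probe's own signal. The members, lists and rules were chosen with earlier results of these data known. Genes carry the array's names, and RefSeq GRCr8 served for promoter sequences. Of 252 DEGs, 183 matched it by accession, 47 by symbol and 22 not. Replicate numbers did not pair the rats (correlation of same-numbered rats −0.132 to 0.219 at D30, with 1 of 6 highest for its own number). Alternatives were scan date, slide or replicate number as a block, other scaling, background correction and probe filters, array weights, the deposited table and single rats left out. Values of a few list members are not reported here. Spots carried other scanner columns that were not used here.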

Additional observations from a re-analysis of the deposited data

Results flagged for a closer look

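Of 186 groups of 6 rats or list means tested for a rat that stood apart by Dixon's ratio, 15 had one, and chance gives about 1 in 20, or 9.3. Among genes, the log2 signal of the rat that stood apart was 8.79 for Saal1 and 2.05 for LOC102550137 in vehicle rat 6, 5.09 for Ccl7, 8.71 for RGD1565655 and 5.33 for Vsig4 in vehicle rat 1, 6.24 for Kcnj4 in vehicle rat 2, 3.29 for Marco in vehicle rat 3 and 2.15 for A2ml1 in vehicle rat 5. In DQ-12 rats it was 6.97 for Gpr84 in rat 1 and 4.96 for Celf4 in rat 4. Among list means, vehicle rat 1 was at −0.45 for B cell and plasma cell genes and at −0.67 for red cell genes, vehicle rat 4 at −0.15 for lymphoid tissue organisation, DQ-12 rat 6 at 1.59 for skeletal muscle genes and DQ-12 rat 3 at 0.65 for immediate early and heat shock genes.

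The change at D30 differed from that at D1, by the limma interaction term, by 4.28 for Itih1, 3.86 for Vsig4, 3.69 for LOC102549724, 3.26 for Klk13, 3.10 for Ccl1, −3.79 for Il24, −3.03 for Celf4, −2.64 for Foxn4, and −2.54 for both Pbk and Stil. It differed from that at D180 by 2.03 for Gdf10, 1.25 for Fn3k, 1.22 for Lrrn3, 1.01 for Postn, −4.15 for Orm1, −2.88 for Lpo, −2.59 for LOC100911842, −2.47 for A2ml1 and −2.42 for LOC689770. Stil was well above background on none of the D30 arrays. Of these 19 differences, 17 lost their call with the scan date as a block and 18 with the slide.

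Of 8483 probes without a gene name, which enter no comparison above, 18 were called at D30, 16 higher and 2 lower.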

How the results depend on the processing

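Against 252 DEGs, 102 (100 higher) were called under normexp background correction, 504 (367 higher) with array weights and 98 (76 higher) in the D30 arrays of the second scan date only, a setting chosen after seeing the data. The other settings gave 173 (slide as a block) to 270 (75th percentile scaling). Against 954 genes by the adjusted p alone, there were 456 with the scan date and 552 with the slide as a block, 481 in the 12 D30 arrays alone, 3459 with array weights and 120 in the second scan date only. Against 74 list members called, 36 were called in the second scan date only. The 226 differences from D1 became 30 with the scan date as a block, 30 with the slide, 101 under normexp and 494 with array weights. The 33 differences from D180 became 14 with the scan date, 223 (155 more positive) with the slide and 226 with array weights. The median over the probes of a gene ended the calls of Osm, Itih3, Fetub, Icos, Np4, Ccna2 and Mcm5 at D30, and RGD1565655 reversed to −0.25 (adjusted p = 0.928, limma) as the median over its probes. The cause of these differences was not tested.

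Leaving out single rats gave 198 (without DQ-12 rat 1) to 360 (without DQ-12 rat 5) DEGs, 557 (without DQ-12 rat 1) to 1779 (without DQ-12 rat 5) genes by the adjusted p alone, 65 to 81 list members, 181 to 319 differences from D1 and 21 (without vehicle rat 5, DQ-12 rat 2 or DQ-12 rat 6) to 80 (without DQ-12 rat 5) from D180. Of 88 named DEGs, 21 lost their call with the scan date as a block, 23 with the slide and 28 under normexp, and no sign changed under these settings. Besides those given in the report, normexp ended the calls of Il12b, Osm, Trem1, Atp6v0d2, Cd5l, Itih3, Hpx, LOC689757 and Alox15 among others. With the replicate number as a block there were 258 DEGs (225 higher), all 88 named calls were kept and no named difference between times was lost. Signals near background limit the folds of the 44 DEGs that were at background in all rats of 1 group.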

Other observations

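Among DEGs outside the gene lists, named here after their values were seen, were further genes of macrophages and other myeloid cells. Siglec1, the sialic acid-binding receptor of resident macrophages, ran from 7.02 to 8.22 in vehicle rats and from 9.25 to 10.44 in DQ-12 rats and rose by 2.04 (SE 0.24, adjusted p = 1.14e-06, limma). Slamf8 (1.73), Slamf9 (1.87), the hexokinase of leukocytes Hk3 (1.47), the inhibitory receptors Lilrb4 (1.51) and Havcr2 (1.50), the activating lectin Clec5a (1.40) and the galectin Lgals3 (1.02) rose too, each with all 6 DQ-12 rats above all vehicle rats. Acod1, the enzyme that makes itaconate, was at background in all vehicle rats and at least 1.15-fold higher. The epithelial resistin-like gene Retnlb was at least 1.82-fold higher. The second probe of Retnlb had 0.63 (adjusted p = 0.514, limma) and that of Havcr2 0.99 (adjusted p = 0.139).

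Plasma proteins outside the lists included the pentraxin Ptx3 (1.89) and both chains of the complement inhibitor C4b-binding protein, C4bpa (2.02) and C4bpb (1.38). The costimulatory pair Tnfrsf9 (1.70) and Tnfsf9 (1.25) rose, as did Clec9a (1.40), a lectin of cross-presenting dendritic cells. The second probe of Clec9a had 0.61 (adjusted p = 0.512, limma). Noxo1, an organiser subunit of an epithelial NADPH oxidase, rose by 1.70.

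The largest fall among all DEGs was that of RGD1566401, a non-coding RNA annotated as similar to GTL2 and matched to Meg3 in RefSeq (−2.38, adjusted p = 0.0331, limma). Its vehicle values of 9.36, 11.24 and 13.77 (lowest, median, highest) overlapped the DQ-12 values of 8.09, 8.90 and 9.76, and the change was −3.04 within the first scan date and −0.92 within the second. With the scan date as a block it was −1.68 (adjusted p = 0.388).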
